A study of Danio rerio with 7 samples.

Results

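The platelet-derived growth factor (PDGF) ligands and receptors were followed through zebrafish melanomas. The members were 6 genes picked by name, 4 of them ligands (*pdgfaa*, *pdgfab*, *pdgfba* and *pdgfbb*) and 2 of them receptors (*pdgfra* and *pdgfrb*). All 6 were among the 20402 genes kept from the bulk table and the 20141 genes of the single-cell table. The bulk table lists *pdgfba* under the clone-based name si:ch211-79m20.1, and it was found there by its Ensembl identifier ENSDARG00000086778. *pdgfbb* was already known to mark the invasive melanoma cluster when the members were listed, so its level in that cluster is a description.

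PDGFs are secreted dimers that bind receptor tyrosine kinases on nearby cells. The A and B chains are the classical ligands, and zebrafish carry a duplicated pair of genes for each chain. In vertebrates the A chain signals through the alpha receptor, which is used by many fibroblasts, while the B chain also binds the beta receptor. The beta receptor is best known from pericytes and smooth muscle, which endothelial PDGF-B draws to vessels, and tumor cells that secrete PDGF can act on the fibroblasts around them.

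Melanomas were made by TEAZ, the electroporation of plasmids into the skin of adult fish. The fish were *casper* (*mitfa*-/-;*mpv17*-/-), carried *mitfa*:BRAFV600E and were *p53*-/-. Every tumor in both assays received MinicoopR-tdT, *mitfa*:Cas9, U6:sg*ptena*, U6:sg*ptenb* and Tol2, so the controls also carry the *pten* guides. In this design Cas9 follows the *mitfa* promoter, and a knockout tumor is a mixture of edited and unedited cells. The first data set was 1 single-cell library in which the tumors and adjacent tissue of 6 fish (3 male, 3 female), 3 months after TEAZ, were pooled. The deposited annotation sorts its 3968 cells into 5 melanoma states (melanocytic, stressed, proliferative, invasive and inflammatory) and the tumor microenvironment (TME). The second was bulk RNA-seq of sorted tdTomato+ cells from tumors that also received U6:sgNT, a non-targeting guide (labelled WT), or U6:sg*dgat1a* (labelled DGAT1a knockout), 3 libraries each. No source used here says whether the 3 libraries of a group came from separate animals, so p-values measure only the spread between these libraries.

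Raw depth ran from 341 to 120384 unique molecular identifiers (UMIs) a cell. The single-cell values are SCTransform-corrected counts, which bring every cell to a similar depth (5400 to 9687 corrected counts a cell) and add counts to shallow cells. Shares of cells are therefore given for the 3467 cells with at least 2000 raw UMIs, with exact Clopper-Pearson 95% intervals that cover counting error only. A share of 0 is given with the limit that 3 counts over the cells examined allow, which is a little under the exact upper bound. Melanophore markers summed to 78.0 corrected counts a cell in melanocytic cells and to 1.29 in the TME. The other melanoma states had 11.5 (stressed), 10.0 (proliferative), 5.42 (invasive) and 1.97 (inflammatory). This list therefore sets melanocytic cells apart, but inflammatory cells hardly from the TME. Macrophage markers summed to 73.7 in the TME and to at most 1.99 in any melanoma state. In the bulk libraries *dgat1a*, the targeted gene, was at 799, 747 and 405 normalized counts in sgNT and at 216, 231 and 240 in sgDGAT1a. It fell by 1.44 on the log2 scale (limma, Benjamini-Hochberg adjusted p = 0.0265), with groups that did not overlap. This call held in 8 of 15 refits and was lost without any 1 of sgNT 1, sgNT 2, sgDGAT1a 1 and sgDGAT1a 2 (limma adjusted p from 0.0974 to 0.114). Library 3 of each group stood apart from the other two. Over genes sgNT 3 had r = 0.887 and 0.888 with sgNT 1 and 2, against 0.962 between those. sgDGAT1a 3 had 0.903 and 0.900 with sgDGAT1a 1 and 2, against 0.963 between those. With sgDGAT1a 1, 2 and 3 sgNT 3 had r = 0.885, 0.874 and 0.866, whereas sgNT 1 and 2 had from 0.799 to 0.821. This control library was thus about as close to the sgDGAT1a libraries as to the other controls. Differences that were called, or large but uncalled, are given for the members without sgNT 3 and without sgDGAT1a 3.

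*pdgfbb*, a B-chain ligand, was concentrated in invasive melanoma cells. Of its 1483 corrected counts over all cells 1278, or 86.2%, lay in the 333 invasive cells. Invasive cells averaged 3.84 corrected counts. The other states averaged 0.0138 (melanocytic), 0.0621 (stressed), 0.126 (proliferative) and 0.0810 (inflammatory), and the TME averaged 0.0426. The log2 ratio of invasive cells to the other 4 melanoma states was 5.93, and it stayed between 5.78 and 5.92 under the alternatives tried. With 1 library there is no replicate check of this ratio and no test was made.

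The signal came from many invasive cells at graded levels. *pdgfbb* was above 0 in 196 of 310 invasive cells (63.2%, interval 57.6 to 68.6) and in 78 of the other melanoma cells (3.56%, 2.82 to 4.42). Among the invasive cells 114 were at 0, 109 had 1 to 4 counts, 55 had 5 to 9 and 32 had 10 or more, with a highest value of 37. Outside the invasive state 4 melanoma cells reached 5 counts and 0 reached 10. The 31 highest invasive cells held 49.9% of that state's *pdgfbb* counts. Depth did not separate the invasive cells with and without *pdgfbb*, whose median raw UMIs were 8237 and 8181. Thinned to 6685 corrected counts a cell, invasive cells were above 0 in 59.8%. This thinning cannot test raw depth, since corrected counts were already at a similar depth in every cell.

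**Figure D1:**
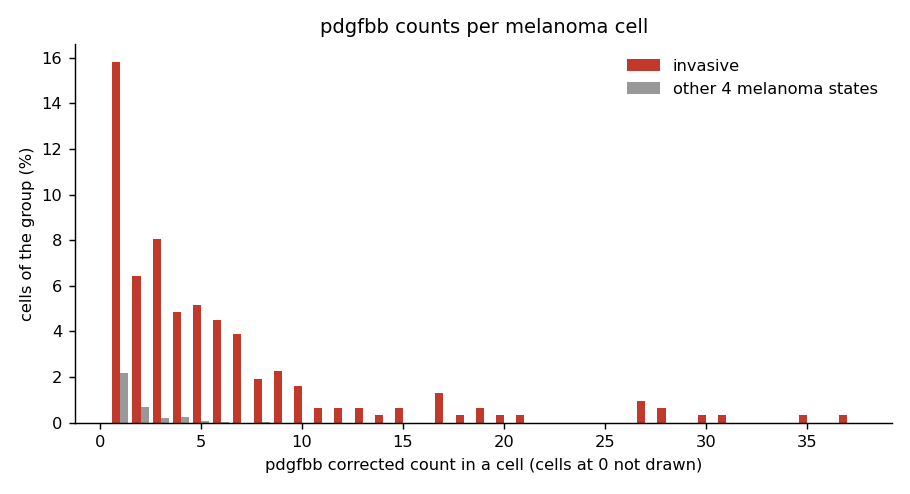
Corrected *pdgfbb* counts per cell (x axis) against the percent of cells of the group (y axis) for 310 invasive cells and the cells of the other 4 melanoma states, all with at least 2000 raw UMIs. Cells at 0 are not drawn. The invasive cells reach 37, and no other melanoma cell reaches 10.

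The Schwann cell and keratinocyte marker lists were also higher in the invasive state than in other melanoma states. Schwann cell markers summed to 18.8 corrected counts a cell there, against 3.51 to 4.65 in the other melanoma states. That list includes *sox10* and *foxd3*, and every melanoma state lay above the TME (0.835), so it does not mark Schwann cells alone. In invasive cells keratinocyte markers summed to 12.0, against 1.88 to 6.44 in the other melanoma states. *pdgfbb* was above 0 in 2 of 275 keratinocyte-like TME cells (0.727%, interval 0.0882 to 2.60). The part of RNA from keratinocytes or Schwann cells in the *pdgfbb* counts of invasive cells was not tested.

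*pdgfab*, an A-chain ligand, was spread over several melanoma states. Its mean was highest in invasive cells (0.736 corrected counts), then in stressed (0.590) and proliferative cells (0.399). It was lower in inflammatory (0.143) and melanocytic cells (0.135) and lowest in the TME (0.0884). Stressed cells held 43.5% of its 1156 counts and invasive cells 21.2%. The log2 ratio of invasive cells to the other 4 states was 1.14, far smaller than for *pdgfbb*.

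The shares of cells followed the order of the means. Cells above 0 made up 43.9% of invasive cells (interval 38.3 to 49.6) and 38.7% of stressed cells (35.3 to 42.1), whose intervals overlap. Proliferative cells followed at 31.5% (26.5 to 36.8), which overlaps the stressed interval only. Inflammatory (11.8%, 9.26 to 14.8) and melanocytic cells (11.3%, 8.64 to 14.5) could not be ordered, and both lay above the TME (6.22%, 4.78 to 7.93). Thinned to 6685 corrected counts a cell the shares were 40.2%, 35.3%, 27.6%, 10.4%, 10.1% and 5.78% in the same order. Corrected counts were already at a similar depth in every cell, so this thinning cannot test raw depth. Median raw UMIs were 8214 in the invasive, 15310.5 in the proliferative and 7102 in the TME cells counted. Within a state, cells with *pdgfab* were deeper than cells at 0. Their median raw UMIs were 9413 against 7193 in invasive cells and 11324 against 9903 in stressed cells. The part of depth in the *pdgfab* shares was not tested.

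Within the invasive state the A-chain ligand was as frequent in cells with the B-chain ligand as in cells without it. *pdgfab* was above 0 in 86 of the 196 cells with *pdgfbb* (43.9%) and in 50 of the 114 without it (43.9%).

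*pdgfba*, the other B-chain gene, had almost no counts in melanoma cells. The TME held 371 of its 374 corrected counts (99.2%), and 181 of 965 TME cells were above 0 (18.8%, interval 16.3 to 21.4). In melanoma 2 of 2502 cells were above 0 (0.0799%). Melanocytic cells were at 0 of 486, which allows a share of up to 0.617%, and inflammatory cells at 0 of 549, which allows up to 0.546%. The B-chain pair therefore divided between compartments, with *pdgfbb* at 96.3% in melanoma cells and *pdgfba* at 99.2% in the TME.

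*pdgfaa*, the other A-chain gene, was near the limit of detection with 39 corrected counts over all cells. Its share of cells above 0 ran from 0.206% in melanocytic cells to 1.64% in inflammatory cells. All 6 intervals overlapped, so its states were not ordered.

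**Figure D2:**
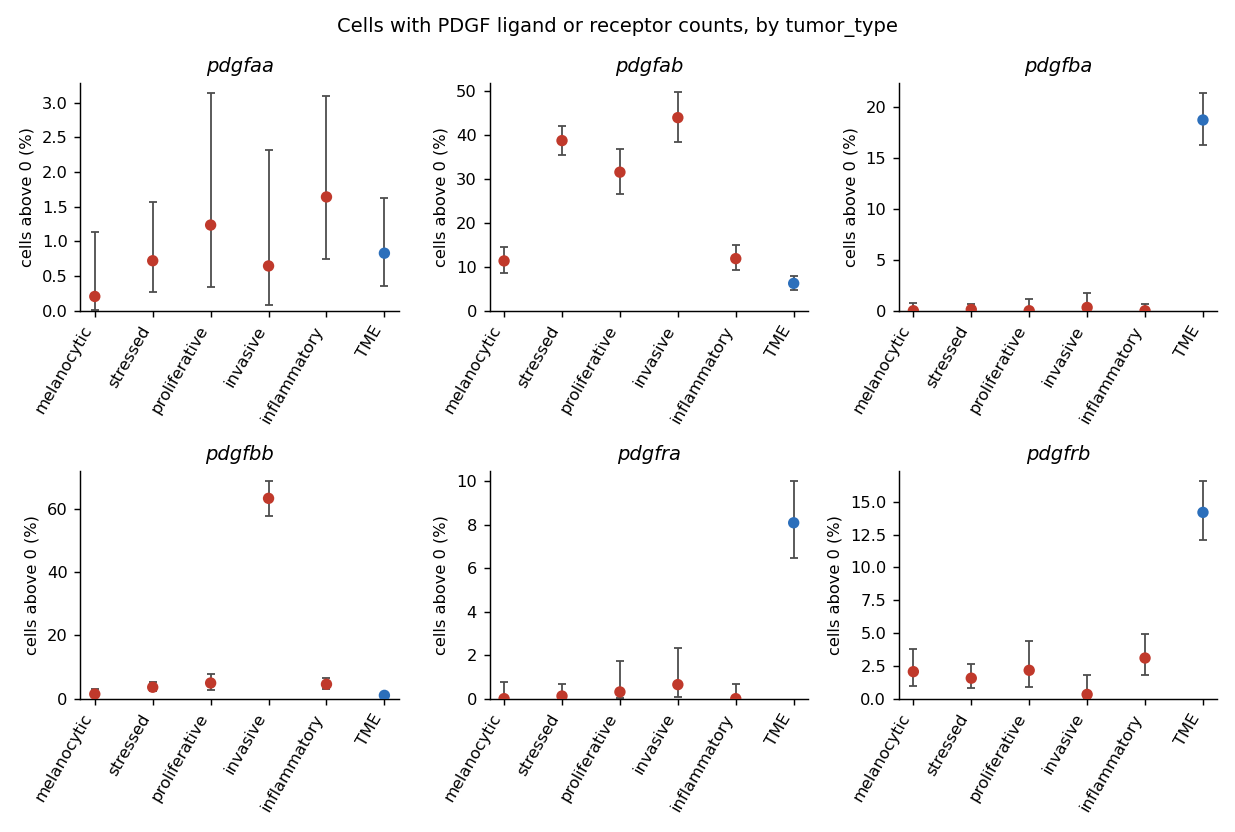
Percent of cells above 0 (y axis, a separate scale in each panel) for each PDGF gene in the 5 melanoma states (red) and the TME (blue), for cells with at least 2000 raw UMIs of 1 library. Bars are exact 95% intervals for counting error. *pdgfbb* stands at 63.2% in invasive cells, while *pdgfba*, *pdgfra* and *pdgfrb* are highest in the TME.

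Both receptors were found mainly in TME cells. For *pdgfra*, the alpha receptor, 304 of 308 corrected counts (98.7%) lay in the TME, where 78 of 965 cells were above 0 (8.08%, interval 6.44 to 9.99). In melanoma 4 of 2502 cells had 1 count each (0.160%). Melanocytic cells were at 0 of 486, which allows up to 0.617%.

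For *pdgfrb*, the beta receptor, 621 of 682 corrected counts (91.1%) lay in the TME, with 137 of 965 cells above 0 (14.2%, interval 12.1 to 16.6). In melanoma it was above 0 in 48 of 2502 cells (1.92%, 1.42 to 2.54), at no more than 3 counts a cell. Invasive cells, the main holders of *pdgfbb*, had it in 1 of 310 (0.323%, 0.00817 to 1.78). Inflammatory cells had it in 17 of 549 (3.10%, 1.81 to 4.91), and the melanocytic, stressed and proliferative states lay between. Keratinocyte-like TME cells, a type that should lack the gene, had it in 1 of 275 (0.364%, 0.00921 to 2.01), and macrophage-like cells in 10 of 333 (3.00%, 1.45 to 5.45). Median raw UMIs were 8876 in the inflammatory cells counted, 9149 in the largest keratinocyte-like cluster and 7264 in the largest macrophage-like cluster. The intervals of the inflammatory and macrophage-like cells overlap, while those of the inflammatory and invasive cells do not. Whether the few *pdgfrb* counts in melanoma cells come from those cells or from free RNA was not tested. None of the 196 invasive cells with *pdgfbb* carried *pdgfrb*.

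The TME cells were then divided to find which of them carry the receptors and *pdgfba*. The 965 TME cells with at least 2000 raw UMIs were clustered without the 6 members, giving 12 clusters. A cluster was given a cell type name only where markers of 1 type prevailed. Cluster 1 (270 cells) was macrophage-like, with 10 of 10 macrophage markers raised, *cd74a* and *c1qb* being its most abundant. Cluster 2 (181 cells) was fibroblast-like, with 13 of 13 fibroblast markers and *col1a2* at 46.5 corrected counts against 2.02 in other TME cells. Clusters 3, 4 and 5 (107, 102 and 66 cells) were keratinocyte-like. Cluster 10 (35 cells) was endothelial-like, with *cldn5b* and *egfl7* as its most abundant markers. It was led by genes such as *lyve1a*, *ecscr* and *lyve1b*, and the kind of vessel its cells come from was not tested. Clusters 7 (49 cells, led by *ccl39.1*) and 12 (14 cells, led by cell cycle genes) were macrophage-like with 5 of 10 markers each. Clusters 6, 8, 9 and 11 were left unnamed.

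*pdgfrb* was densest in a small cluster of mixed marker content. Cluster 8 held 38 cells and was led by genes such as *kcne4*, *rasl12* and *tagln*. Of the marker lists, 9 of 13 fibroblast and 5 of 13 pericyte and smooth muscle markers were raised there, so it has no name here. Its *rgs5b* averaged 35.1 corrected counts against 2.73 in other TME cells and its *tagln* 18.4 against 0.381. Both genes were picked from the pericyte and smooth muscle list and are known from mural cells, which wrap vessels. More markers of the fibroblast list were raised in this cluster, and their levels in it are not given here. These levels of *rgs5b* and *tagln* therefore do not name the cluster, and whether its cells are mural was not tested. *pdgfrb* averaged 6.76 corrected counts in cluster 8 and was above 0 in 35 of 38 cells (92.1%, interval 78.6 to 98.3), with a highest value of 26. The cluster held 53.1% of the *pdgfrb* counts of the clustered TME cells.

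Fibroblast-like cells carried both receptors. In cluster 2 *pdgfrb* averaged 1.14 corrected counts and was above 0 in 85 of 181 cells (47.0%, interval 39.5 to 54.5). The same cells averaged 0.939 for *pdgfra*, with 63 of 181 above 0 (34.8%, 27.9 to 42.2). Cluster 8 had *pdgfra* in 11 of 38 cells (28.9%, 15.4 to 45.9), a share that could not be ordered against that of cluster 2. These clusters together held nearly all TME *pdgfra*, cluster 2 with 81.3% and cluster 8 with 15.8%. Endothelial-like cells had neither receptor, at 0 of 35, which allows a share of up to 8.57%.

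The receptors were often found in the same cells. Of the 78 TME cells with *pdgfra*, 55 also had *pdgfrb* (70.5%), against 9.24% of the TME cells without *pdgfra*. Within cluster 2 the shares were 66.7% and 36.4%. In cluster 8 all 11 cells with *pdgfra* had *pdgfrb*, but so did 88.9% of its cells without *pdgfra*. Cluster 2 cells with both receptors were deeper than those with neither (median raw UMIs 5060.5 and 3928), and the part of depth in this was not tested.

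*pdgfba* was most frequent in clusters 1, 6, 7 and 9, of which 1 and 7 were macrophage-like. It averaged 0.719 corrected counts in cluster 1, where 105 of 270 cells were above 0 (38.9%, interval 33.0 to 45.0). Cluster 7 had it in 22 of 49 cells (44.9%, 30.7 to 59.8), cluster 6, led by factor XIII genes such as *f13a1a.1*, in 20 of 50 (40.0%, 26.4 to 54.8), and cluster 9, led by *cxcr1* and *gpnmb*, in 14 of 37 (37.8%, 22.5 to 55.2). These 4 clusters could not be ordered. Cluster 6 had 8 of 10 macrophage markers raised but cluster 9 only 2 of 10. Macrophage markers did not always go with the gene, since cluster 11, led by genes such as *cd8a* with 8 of 10 raised, had *pdgfba* in 0 of 16 cells, which allows up to 18.8%, and macrophage-like cluster 12 had it in 2 of 14 (14.3%, 1.78 to 42.8). Endothelial-like cells had *pdgfba* in 5 of 35 (14.3%, 4.81 to 30.3) and *pdgfbb* in 0 of 35, which allows up to 8.57%. Fibroblast-like cells had *pdgfba* in 3.87% (1.57 to 7.81) and the keratinocyte-like clusters in 2.18% (0.805 to 4.69), both above the 0.0799% of melanoma cells (0.00968 to 0.288). For *pdgfab*, the highest share within the TME was that of cluster 7, with 13 of 49 cells (26.5%, 14.9 to 41.1). Its interval overlapped those of clusters such as 4, 6, 8 and 10 (17.1% in cluster 10, 6.56 to 33.6), so these could not be ordered.

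**Figure D3:**
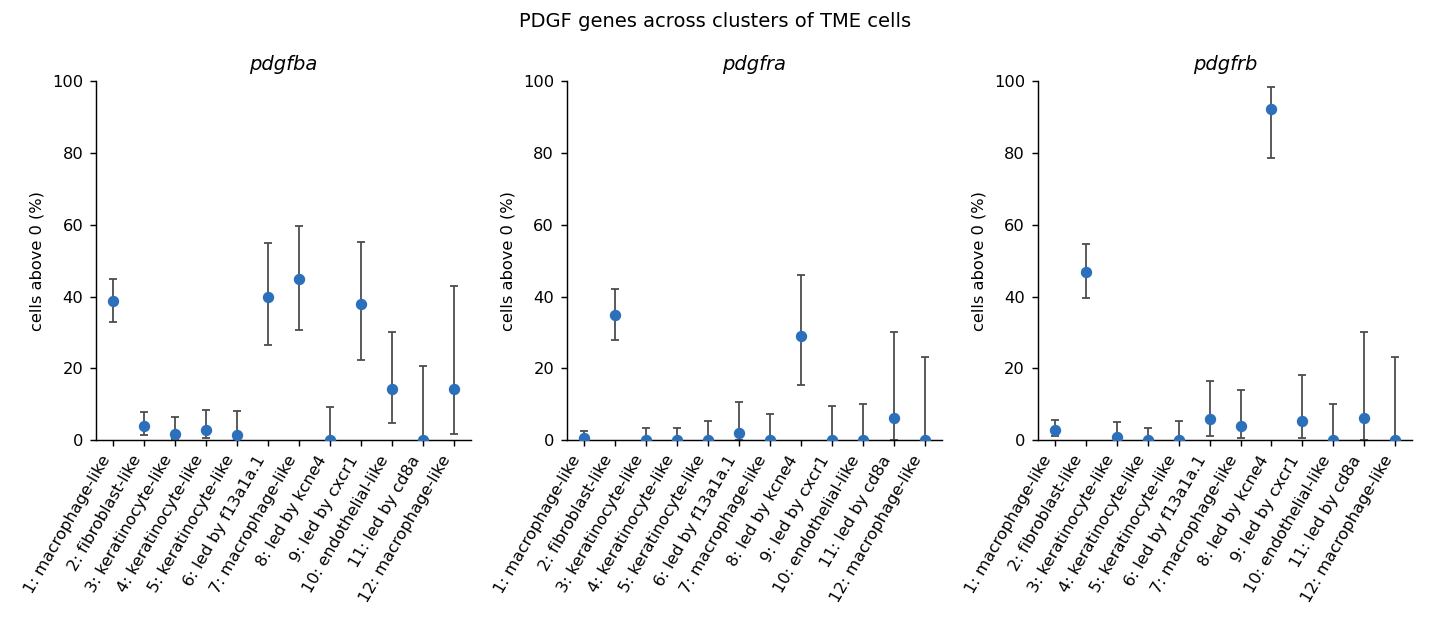
Percent of cells above 0 (y axis) for *pdgfba*, *pdgfra* and *pdgfrb* in 12 clusters of TME cells (x axis, with the cell type name or a leading gene). Bars are exact 95% intervals for counting error. *pdgfba* is near 40% in clusters 1, 6, 7 and 9, *pdgfra* is high in clusters 2 and 8, and *pdgfrb* reaches 92.1% in cluster 8.

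The genes most like each member over cells were found by Pearson correlation of log2(corrected count + 1), as a description over cells that share 1 library. Over 2502 melanoma cells *pdgfbb* was most like *krt94*, a keratin (r = 0.57), *itih5*, an inter-alpha-trypsin inhibitor family member (0.54), and *scn1ba*, a sodium channel beta subunit (0.53). Among melanoma cells each followed the invasive state, *krt94* with 5.70 corrected counts there and 0.0716 in the other melanoma states. In the TME *krt94* averaged 1.14. *pdgfab* was most like *vim*, the intermediate filament vimentin (0.31), *ptgs2b*, a prostaglandin synthase (0.30), and *marcksl1b*, a MARCKS-like protein (0.27). For *pdgfba*, which was above 0 in 2 melanoma cells, no likeness was read. Over 965 TME cells *pdgfra* was most like the collagen genes *col6a1* (0.61), *col5a1* (0.61) and *col6a2* (0.59), all on the fibroblast marker list. *pdgfrb* was most like the basement membrane genes *col4a2* (0.67), *col4a1* (0.65) and *lama4* (0.65).

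Other PDGF family genes were sparse in single cells, apart from a receptor-like gene. *pdgfd* had its highest mean in stressed cells (0.0785 corrected counts) and *pdgfc* stayed at or under 0.00901 in every group. *pdgfrl*, which codes for a secreted receptor-like protein without a kinase, was the most abundant, at 2.08 in stressed cells, 0.826 in melanocytic cells and 0.858 in the TME. These means include shallow cells, where *pdgfrl* was above 0 in 71 of 93 melanocytic and 252 of 325 TME cells. Over cells with at least 2000 raw UMIs it averaged 2.11, 0.751 and 0.670, so melanocytic cells lay above the TME. Of the related receptor kinases, *kita*, which melanocytes need, was highest in melanocytic cells (1.11). *csf1ra*, a receptor of macrophages and xanthophores, averaged 0.330 in the TME. *csf1rb* and *flt3* had counts only in the TME (0.0481 and 0.0147). The VEGF receptors *flt4*, *kdr* and *kdrl* were low, at 0.0543, 0.0155 and 0.0155 in the TME. Of the VEGF ligands *vegfc* was higher in the TME (0.0837) than in melanoma cells (0.00261), while *vegfaa*, *vegfab*, *vegfd* and *pgfb* stayed under 0.1 in every group.

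The bulk libraries asked whether the guide against *dgat1a* changed these genes in sorted tumor cells. Values are counts scaled by size factors, tested on log2(value + 1), and a gene was called at adjusted p under 0.05 and a log2 fold change beyond 1. Of the 6 members 1 was called higher and 0 lower, while 8.70% of the 16969 genes tested were called higher and 3.31% lower. With values that did not overlap between groups, 2 of 6 were higher in sgDGAT1a, beside 21.1% of all genes tested, and 0 of 6 were lower, beside 15.9%. The members' share is thus near the background.

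The called member was the alpha receptor. *pdgfra* was at 66.4, 108 and 197 normalized counts in sgNT and at 930, 1302 and 572 in sgDGAT1a. Every sgDGAT1a library lay above every sgNT library. The log2 fold change was 2.97 (SE 0.46, n = 3 each, limma adjusted p = 0.0109), and an exact two-sided permutation test over libraries gave p = 0.1, the smallest that 3 against 3 allows. The call was lost without sgDGAT1a library 1 (2.93, limma adjusted p = 0.0526) and without library 2 (2.69, 0.0603). It held without sgNT library 3 (3.37, 0.00131) and without sgDGAT1a library 3 (3.28, 0.0214), and altogether in 11 of 15 refits with other settings or fewer libraries.

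The beta receptor moved the same way without passing the test. *pdgfrb* was at 622, 525 and 878 normalized counts in sgNT and at 1054, 1234 and 1469 in sgDGAT1a. The groups did not overlap, with sgNT 3 nearest to the sgDGAT1a libraries. The log2 difference was 0.91 (SE 0.26, limma adjusted p = 0.0552, exact permutation p = 0.1). Without sgNT library 3 it was 1.12 (limma adjusted p = 0.00971), past both thresholds, and without sgDGAT1a library 3 it was 0.79 (limma adjusted p = 0.104).

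*pdgfbb* had a large difference and a wide spread. It was at 44.0, 22.9 and 163 normalized counts in sgNT and at 515, 520 and 158 in sgDGAT1a. The libraries numbered 3 of both groups were close to each other, so the groups overlapped. The log2 difference was 2.64 (SE 0.76, limma adjusted p = 0.0558, exact permutation p = 0.2). Without sgNT library 3 the difference was 3.41 (limma adjusted p = 0.00616), and without sgDGAT1a library 3 it was 3.21 (limma adjusted p = 0.0537). The 3 genes most like *pdgfbb* in single melanoma cells were all called higher in sgDGAT1a, beside 8.70% of all genes tested. The log2 fold changes were 3.06 for *krt94*, 2.59 for *itih5* and 3.40 for *scn1ba* (limma adjusted p = 0.00644, 0.0282 and 0.0204). In single TME cells *krt94* averaged 1.14 corrected counts, against 0.115 for *itih5* and 0.0318 for *scn1ba*. The part of TME cells in these rises was not tested. The *krt94* call held in 14 of 15 refits. Those of *itih5* (8 of 15) and *scn1ba* (9 of 15) were lost without any 1 of sgNT 1, sgNT 2, sgDGAT1a 1 and sgDGAT1a 2 (limma adjusted p from 0.0692 to 0.112).

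The other ligands did not pass the test. *pdgfaa* was at 18.1, 2.57 and 63.4 normalized counts in sgNT and at 59.1, 65.0 and 81.6 in sgDGAT1a, and sgNT 3 lay within the range of sgDGAT1a. Its log2 difference was 2.07 (SE 0.99, limma adjusted p = 0.191), and it was past both thresholds only without sgNT library 3 (3.06, limma adjusted p = 0.0262). Without sgDGAT1a library 3 it was 1.94 (limma adjusted p = 0.304). *pdgfab* was at 1531, 1466 and 1242 in sgNT and at 1262, 1071 and 818 in sgDGAT1a. Its groups overlapped slightly, and its log2 difference was -0.44 (SE 0.23, limma adjusted p = 0.230). *pdgfba* was at 709, 576 and 690 in sgNT and at 676, 587 and 568 in sgDGAT1a, with a log2 difference of -0.11 (SE 0.22, limma adjusted p = 0.773). Of the 2 receptors and 4 ligands, *pdgfba* thus had the smallest difference.

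**Figure D4:**
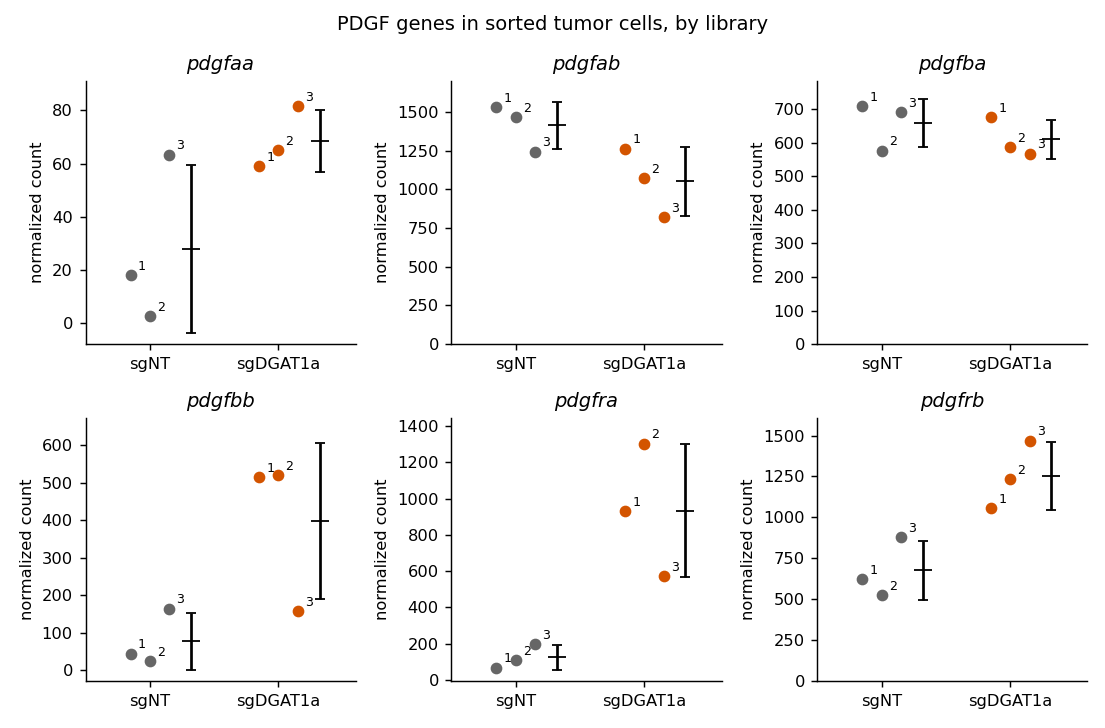
Normalized counts (y axis, a separate scale in each panel) of each PDGF gene in 3 sgNT and 3 sgDGAT1a libraries of sorted tdTomato+ cells. Points are libraries with their numbers, and the bar beside them is the mean ± SD (n = 3). *pdgfra* and *pdgfrb* do not overlap between groups, and *pdgfbb* overlaps through the libraries numbered 3.

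Markers of other cell types were also measured in the sorted libraries, and several of these lists differed between the guides. The markers are not confined to those types. In single cells keratinocyte markers summed to 12.0 corrected counts in invasive cells and 82.2 in the TME, and fibroblast markers to 2.26 and 39.9. Which cells the marker RNA of the sorted libraries came from was not tested. Fibroblast markers summed to 43351 to 52263 normalized counts in sgNT and to 181942 to 238262 in sgDGAT1a, with 12 of 13 markers called higher. Keratinocyte markers (9 of 10 called higher) summed to 16978, 19602 and 95340 in sgNT 1, 2 and 3, and to 180001 to 273670 in sgDGAT1a. Skeletal muscle markers (10 of 10) summed to 686, 870 and 4338 in sgNT 1, 2 and 3, and to 20628 to 64689 in sgDGAT1a. For both lists sgNT 3 was the control nearest to sgDGAT1a. Endothelial markers were called higher in 7 of 12 and pericyte and smooth muscle markers in 2 of 12, namely *rgs5a* and *desma*. Called higher were also 3 of 7 xanthophore, 2 of 6 T cell, 2 of 6 erythrocyte and 2 of 7 neutrophil markers. The macrophage (1 of 10), melanophore (1 of 9), Schwann cell (1 of 9) and iridophore lists (1 of 7) had 1 call each. These counts stand beside 8.70% of all genes tested called higher. In bulk samples more cells of a type and more RNA per cell cannot be told apart. The part of these cell types in the differences of *pdgfra*, *pdgfrb* and *pdgfbb* was not tested by sorting or by counting cells.

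Set against the fibroblast markers of the same library, the receptors looked different, in an alternative chosen after seeing the data. Per 1000 summed fibroblast marker counts *pdgfra* was at 1.53, 2.46 and 3.78 in sgNT and at 3.90, 5.51 and 3.14 in sgDGAT1a. The groups overlapped, with a log2 ratio of 0.69 (exact permutation p = 0.2). *pdgfrb* was at 14.4, 12.0 and 16.8 in sgNT and at 4.43, 5.22 and 8.07 in sgDGAT1a, lower in every sgDGAT1a library, with a log2 ratio of -1.29 (exact permutation p = 0.1, the smallest possible). This quotient cannot test *pdgfrb* itself, since the fibroblast marker sum rose by more than *pdgfrb* did. Cluster 8, not named fibroblast-like, held 53.1% of the *pdgfrb* counts of the clustered TME cells. Per 1000 summed pericyte and smooth muscle marker counts *pdgfrb* was at 127, 96.5 and 105 in sgNT and at 124, 134 and 168 in sgDGAT1a, and the groups overlapped (exact permutation p = 0.2). The 3 genes most like *pdgfra* in single TME cells were all called higher in sgDGAT1a, beside 8.70% of all genes tested. All 3 are on the fibroblast marker list, of which 12 of 13 were called higher, so their calls are not a separate result. The log2 fold changes were 2.22 for *col6a1*, 1.56 for *col5a1* and 2.51 for *col6a2* (limma adjusted p = 0.00768, 0.0115 and 0.00652). The *col6a2* call held in 14 of 15 refits. That of *col6a1* was lost without sgDGAT1a 2 (limma adjusted p = 0.0518), and that of *col5a1* without any 1 of sgNT 1, sgNT 2, sgDGAT1a 1 and sgDGAT1a 2 (from 0.0527 to 0.0638). None of the 3 genes most like *pdgfrb* was called, with log2 differences of 0.65 for *col4a2*, 0.23 for *col4a1* and -0.31 for *lama4*. In single cells these 3 genes were not confined to the TME. *col4a2* averaged 4.59 corrected counts in invasive cells, 1.79 in the other melanoma states and 2.31 in the TME. In the same order *col4a1* averaged 3.42, 1.41 and 1.95, and *lama4* 1.11, 0.574 and 0.792. Their bulk values therefore do not stand for TME cells alone.

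**Figure D5:**
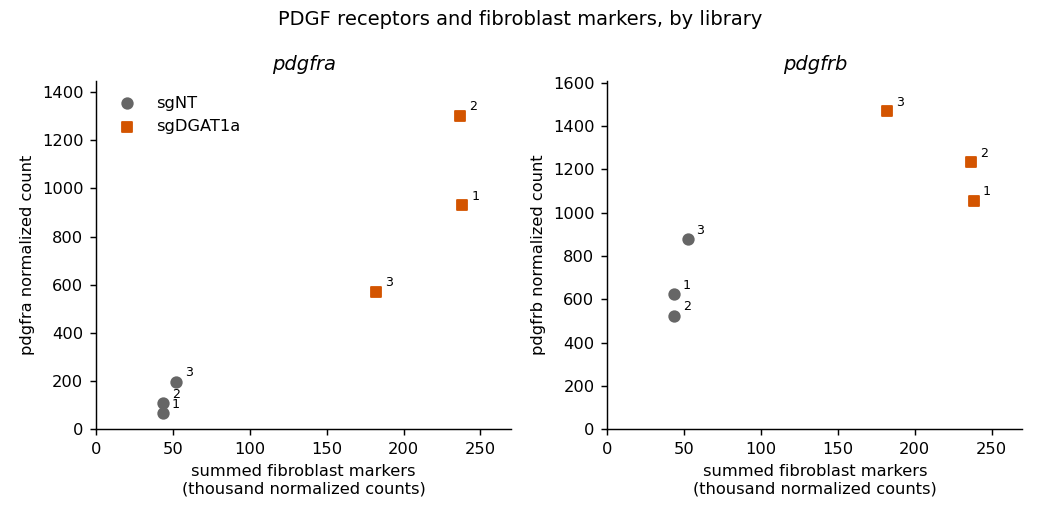
Normalized counts of *pdgfra* and *pdgfrb* (y axes) against the summed fibroblast markers (x axis, in units of 1000 normalized counts) in 3 sgNT and 3 sgDGAT1a libraries, numbered. The sgDGAT1a libraries lie higher on every axis, and *pdgfra* spans a wider range than *pdgfrb*.

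*pdgfba* was measured in the sorted cells although single melanoma cells had almost none of it. Its 568 to 709 normalized counts stood beside macrophage markers that summed to 66335 to 81655 normalized counts in sgNT and to 83327 to 99804 in sgDGAT1a, with 1 of 10 called higher. Per 1000 summed macrophage marker counts, also chosen after seeing the data, *pdgfba* was at 10.7, 7.62 and 8.45 in sgNT and at 7.19, 5.88 and 6.81 in sgDGAT1a. The groups did not overlap (log2 ratio -0.43, exact permutation p = 0.1). This quotient is no separate test of *pdgfba*, since the macrophage marker sum was higher in every sgDGAT1a library. The largest part of that sum was *cd74a*, with a mean of 41744 in sgNT and 57570 in sgDGAT1a. Of the 10 markers, 2 were higher in every sgDGAT1a library. *marco* was lower in every one (mean 7602 in sgNT and 4762 in sgDGAT1a), and the others overlapped. The part of macrophages in the *pdgfba* of the sorted cells was not tested.

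Of 8 other ligands of the PDGF and VEGF families tested, 1 was called higher and 0 lower, beside 8.70% and 3.31% of all genes. Their median log2 difference was -0.10, beside 0.02 over all genes tested. The called gene was *vegfd*, a lymphatic growth factor, at 115, 86.3 and 47.6 normalized counts in sgNT and 346, 361 and 201 in sgDGAT1a (log2 fold change 1.89, limma adjusted p = 0.0309). The others had log2 differences of 0.10 (*pdgfc*), -0.54 (*pdgfd*), -0.29 (*pgfb*), -0.41 (*vegfaa*), -0.79 (*vegfab*), 1.93 (*vegfba*) and 1.34 (*vegfc*), so the median near 0 covers differences in both directions. The groups of *vegfc* also did not overlap. The *vegfd* call held in 8 of 15 refits and was lost without any 1 of sgNT 1, sgNT 2, sgDGAT1a 1 and sgDGAT1a 2 (limma adjusted p from 0.0630 to 0.129). *vegfbb* was too low to test.

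Among the relatives of the PDGF receptors 1 of 9 tested was called higher and 0 lower, beside 8.70% and 3.31% of all genes. Their median log2 difference was 0.54. The called gene was *flt4*, the receptor of VEGF-C and VEGF-D, at 25.6, 5.93 and 34.6 normalized counts in sgNT and 481, 325 and 102 in sgDGAT1a (log2 fold change 3.76, limma adjusted p = 0.0239). The *flt4* call held in 9 of 15 refits and was lost without any 1 of the same 4 libraries (limma adjusted p from 0.0642 to 0.104). The log2 differences of the others were -0.78 (*csf1ra*), 2.08 (*csf1rb*), 0.54 (*flt1*), -2.14 (*flt3*), 3.47 (*kdr*), 1.83 (*kdrl*), -1.12 (*kita*) and 0.49 (*pdgfrl*). *kitb* was too low to test.

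Proteins that hold, process or share receptors with PDGF were called in 4 of 12, beside 12.0% of all genes in either direction. 3 rose. *sparc*, a matrix protein that binds the B chain in mammals, went from a mean of 4126 to 19168 normalized counts (log2 fold change 2.22, limma adjusted p = 0.00531). *lrp1aa* and *lrp1ab*, genes of the endocytic receptor LRP1 that associates with the beta receptor in mammals, rose by 3.19 and 1.39 (limma adjusted p = 0.00610 and 0.0109). *nrp1a*, a neuropilin co-receptor, fell by 1.39 on the log2 scale (limma adjusted p = 0.0211). The calls of *sparc* and *lrp1aa* each held in 14 of 15 refits. That of *lrp1ab* held in 12 and was lost without sgNT 1 (limma adjusted p = 0.0563) and without sgDGAT1a 2 (0.0628). That of *nrp1a* held in 8 and was lost without any 1 of sgNT 1, sgNT 2, sgDGAT1a 1 and sgDGAT1a 2 (limma adjusted p from 0.0557 to 0.0767). In single cells *sparc* averaged 10.9 corrected counts in the TME, 8.86 in invasive cells and at most 2.64 in any other melanoma state. *lrp1ab* averaged 0.318 in the TME and 0.00224 in melanoma cells, whereas *nrp1a* was highest in invasive cells (0.991) and at 0.196 in the TME.

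The intracellular relays of PDGF receptors were called in 2 of 38, both lower, beside 3.31% of all genes lower and 12.0% in either direction. This count of calls is near the background, and the median log2 difference was -0.23. With values that did not overlap between groups, 11 of 38 were lower in sgDGAT1a, beside 15.9% of all genes tested. Higher without overlap were 2 of 38, beside 21.1%. *cblb*, a ubiquitin ligase that acts on receptor kinases, fell by 1.13 on the log2 scale (limma adjusted p = 0.0156). *yes1*, a kinase of the Src family, fell by 1.00 on that scale (limma adjusted p = 0.0192). Each call held in 7 of 15 refits, and each was lost without any 1 of those 4 libraries (limma adjusted p from 0.0581 to 0.0955). *cblb* also missed the fold threshold without sgDGAT1a 3, at -0.995 on the log2 scale. In single cells *cblb* and *yes1* averaged 0.733 and 0.633 corrected counts in melanoma cells and 0.165 and 0.250 in the TME.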

How the data were processed

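The single-cell table holds SCTransform-corrected counts (unit: score), which the authors made with Cell Ranger, R 4.0.5 and Seurat 4.0.2 on GRCz11. The deposited annotation adds raw UMI counts, the percent of mitochondrial UMIs and tumor_type for each cell. The authors sorted cells to remove doublets and filtered on genes and mitochondrial percent. No doublet caller was run here. The bulk table holds normalized signal, namely Salmon 1.4.0 counts (GRCz11) that the authors divided by DESeq2 1.30.1 size factors after FastQC 0.11.9 and Trimmomatic 14.0.1 (version as listed in the submitters' processing notes). These are not raw counts, so raw depth is not shown. The normalized values summed to 19183900 to 23287400 a library.

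Repeated Ensembl identifiers (280 lines) were left out. Genes with a mean of at least 10 were tested with limma 3.58.1 (R 4.3.3) on log2(value + 1), with a trended prior and Benjamini-Hochberg adjustment, after a check on simulated data. Single members also had exact two-sided permutation tests over libraries. No test was made between states or clusters of the 1 single-cell library. Ratios used a pseudocount of 0.5 per sum. TME cells were clustered with 2000 variable genes, 30 components, 15 neighbours and Leiden (leidenalg 0.10.2) at resolution 0.5. A cluster was named where at least 3 markers of 1 list were raised, at least 3 times as many as of any other list, and no other list's marker was in its top 10 genes. Named were the members, *dgat1a*, every measured family relative, called genes of the other lists (up to 5), the 2 most abundant markers, and for each member with at least 200 corrected counts the 3 genes most correlated with it. Members and lists were chosen with earlier results of these data known. No sequence or genome coordinate was used here.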

Additional observations from a re-analysis of the deposited data

How the results depend on the processing

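The single-cell ratios and most shares moved little under the alternatives tried. The share of stressed cells with *pdgfab* was 35.3% in thinned cells, and that of TME cells with *pdgfba* was 15.1% over all cells, an alternative added after seeing the data. With all TME cells clustered, *pdgfrb* shares were 37.3% for cluster 2 and 78.6% for cluster 8.

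In the bulk libraries, *pdgfra* was also not called with libraries 1 and 2 of each group averaged (2.60, limma adjusted p = 0.140), and against fibroblast markers it came to 0.69. Its log2 fold change ran from 2.59 to 3.37 with each library left out. *pdgfbb* was called with a pseudocount of 10 (2.41, limma adjusted p = 0.0479). With each library left out it ran from 2.02 to 3.41, *pdgfaa* from 0.98 to 3.06 and *pdgfrb* from 0.75 to 1.12. The quotient of *pdgfrb* to the fibroblast marker sum, which is not a refit of *pdgfrb*, had a log2 ratio of -1.29. Same-numbered libraries did not deviate together (correlations -0.074, -0.051 and -0.144). These are deviations from means of 3 libraries, so they cannot settle whether the numbers pair the libraries, and no source used here says so. With a replicate block *pdgfra* stayed at 2.97 (limma adjusted p = 0.0510), and the calls over all genes came to 366 higher and 116 lower, against 1477 and 561, with 3 on the PDGF-related lists, against 8.

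With the block the calls of *dgat1a*, *vegfd*, *flt4*, *nrp1a*, *cblb*, *yes1*, *itih5*, *scn1ba* and *col5a1* were also lost (limma adjusted p from 0.0542 to 0.0890), and with a constant prior those of *dgat1a*, *nrp1a*, *yes1* and *itih5* (from 0.0507 to 0.0626).

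With libraries 1 and 2 averaged 0 genes were called in either direction and 0 on the lists. In that fit the spread rests on fewer samples. Calls higher ran from 80 to 2854 and calls lower from 28 to 1371 with each library left out, and list calls from 2 to 20. The highest of these came without sgNT library 3 and the lowest without sgDGAT1a library 2. A constant prior gave 315 lower, and quantile normalization 5 list calls. Uncalled relatives changed sign: *pdgfc* was at -0.91 with quantile normalization and -0.059 with averaged libraries, and with each library left out it ran from -0.20 to 0.34, *pgfb* from -0.65 to 0.22 and *vegfaa* from -1.15 to 0.034. The cause of these shifts was not tested.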
